A study of Homo sapiens with 5 samples.

Results

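The interaction of SP1 and SP3 knockdown is the part of a double knockdown that is left after the effects of the 2 single knockdowns have been added. It was taken per gene from all 5 of the 5 libraries of the study, on the scale log2(FPKM + 1), as the level with both siRNAs minus the level with SP1 siRNA minus the level with SP3 siRNA plus the mean of the 2 controls. FPKM counts fragments per kilobase of a gene's transcript, relative to the depth of its library. Each library lists 20003 genes, of which 11709 reached at least 1 FPKM in at least 1 library and were tested. A value of 0 means that the effects add on the log2 scale, so that the fold changes multiply; that level is called the sum. An interaction above 0 means a double knockdown level above the sum, and one below 0 a level below it.

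The cells are HCT116, an established human colorectal cancer line. They carried a control siRNA (116_NC, 2 libraries), siRNA against SP1 (siSP1, 1 library), siRNA against SP3 (siSP3, 1 library) or both siRNAs (siSP1SP3, 1 library). No group has, by the labels, another allele or agent. All groups come from 1 cell line and received siRNA; the siRNA sequences, amounts and treatment time are not stated in the labels. Each knockdown has 1 library, so a difference particular to 1 library and an interaction cannot be told apart.

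SP1 and SP3 are related transcription factors with zinc fingers, and both bind the same GC-rich element, the GC box, in the promoters of many housekeeping and cell cycle genes. SP1 is known mainly as an activator, while SP3 occurs as long forms that activate and short forms that activate weakly or compete with SP1 for the site. Comparing both siRNAs with each one alone asks whether removing the second factor adds to the effect of removing the first.

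For 4619 of the 11709 genes the level with both siRNAs differed from the sum of the single effects. Of 40 mitosis genes, 39 fell with SP1 siRNA alone (28.9% of all genes tested) and 37 with SP3 siRNA alone (32% of all), yet with both siRNAs 32 lay above both single knockdowns, as did 2470 of all 11709. KLF2, TOMM22 and PRDX4, which each siRNA alone raised several-fold, were not higher with both than with SP1 siRNA alone. A small group, among them the cell cycle inhibitor gene CDKN1A, went further with both siRNAs than the sum.

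SP1 itself was at 36.6 and 37.2 FPKM in the controls, 15.8 with SP1 siRNA, 27.5 with SP3 siRNA and 16.1 with both. Its level was thus low in both libraries that received SP1 siRNA, at 42.9% of control (95% interval 39.1 to 46.9) with it alone and 43.6% (39.7 to 47.8) with both. The interaction for SP1 was 0.43 ± 0.11 (SE; limma adjusted p = 0.0065); SP3 siRNA changed SP1 by -0.41 ± 0.07 alone and by 0.02 ± 0.08 on top of SP1 siRNA (log2). SP3 was at 13.3 and 13.0 FPKM in the controls, 14.3 with SP1 siRNA, 5.42 with SP3 siRNA and 6.67 with both. That is 41.3% of control (37.7 to 45.2) with SP3 siRNA alone and 50.7% (46.5 to 55.3) with both, and the interaction of 0.14 ± 0.14 did not pass the test (limma adjusted p = 0.46). These intervals cover counting error only. The smaller loss of SP3 in the double knockdown library stands beside every result that follows, and its part in them was not tested.

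The limma fit, whose spread comes from the 2 controls and is shared across genes, called 4619 of the 11709 genes (39.4%), with 2168 above the sum (18.5%) and 2451 below it (20.9%). The interaction had a median of -0.03 and an SD of 0.520 across genes, against an SD of 0.176 that the spread between the controls alone would give. By size and with no test, of the 7115 genes averaging 5 FPKM or more over the libraries, 233 (3.27%) lay 2-fold or more above the sum against each control taken alone, and 164 (2.3%) lay 2-fold or more below it; with a pseudocount of 5 these were 121 and 69. Without the filter on low values limma called 0 genes in each direction, with 2380 above and 2988 below at an unadjusted p under 0.05. The p-values assume that each knockdown library varies as the controls do, and measure only the spread between the 2 controls, which may be technical because no label states separate cultures.

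The interaction can be read as the change in what 1 siRNA does once the other is present. SP1 siRNA alone changed 7650 genes (65.3%), while on top of SP3 siRNA it changed 3854 (32.9%). SP3 siRNA alone changed 7207 genes (61.6%), and on top of SP1 siRNA 5540 (47.3%). The same siRNA's effects without and with the other share no library; across the 11709 genes their Pearson r was 0.484 for SP1 siRNA and 0.475 for SP3 siRNA. The SD of the effects was 0.590 without and 0.349 with the other siRNA for SP1 siRNA, and 0.553 and 0.447 for SP3 siRNA, on the log2 scale. Of the 2923 genes that SP1 siRNA changed both without and with SP3 siRNA, 2440 (83.5%) moved in the same direction and 483 in opposite directions. For SP3 siRNA these were 3177 (82.8%) and 658 of 3835. The comparison without a second siRNA uses 2 controls and the comparison with one uses a single library on each side, which gives the first a smaller error.

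**Figure D1:**
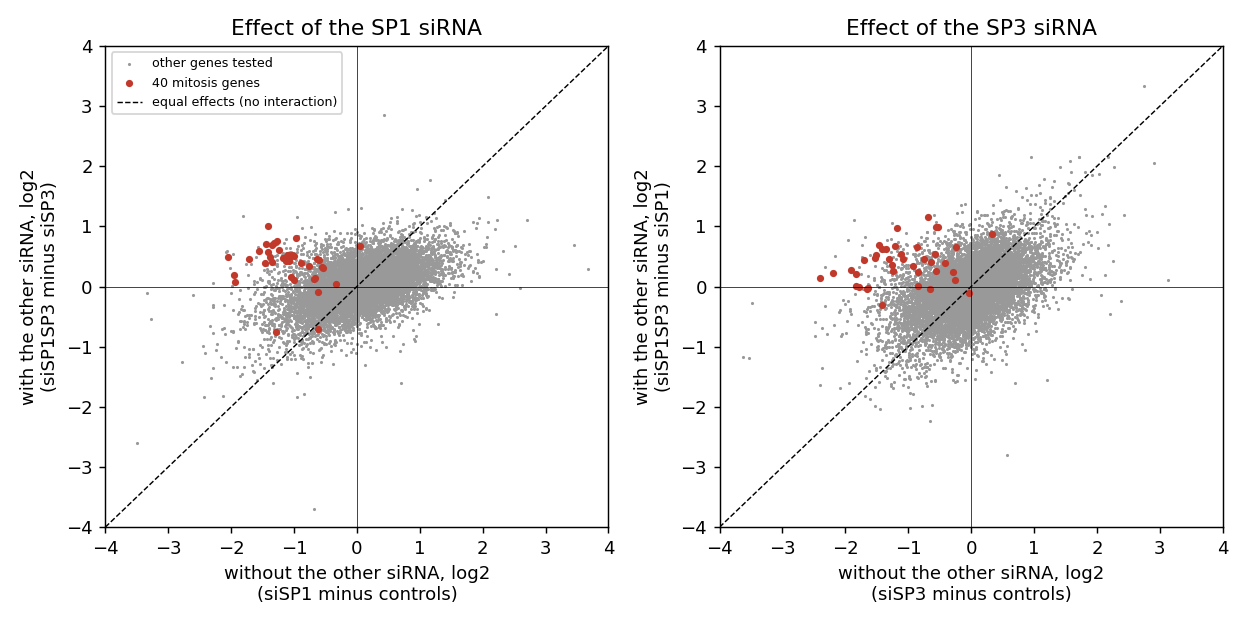
Each point is 1 of the 11709 genes tested, with the log2 difference made by an siRNA without the other siRNA on the x axis and with it on the y axis, for SP1 siRNA (left) and SP3 siRNA (right). The cloud lies flatter than the dashed line of equal effects, and most of the 40 mitosis genes (red) are below 0 on the x axis and above 0 on the y axis.

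The mitosis genes gave the largest median interaction of the 30 gene lists. Of 40 genes, 37 were called above the sum and 0 below, against 18.5% and 20.9% of all genes tested. The list's median difference from the controls was -1.10 with SP1 siRNA, -1.15 with SP3 siRNA and -0.68 with both, and its median interaction was 1.58, with members from -0.08 (CDC25B, the single value below 0, limma adjusted p = 0.62) to 2.53 (KIF20A). SP1 siRNA alone lowered 39 of the 40 genes (28.9% of all genes tested fell) and SP3 siRNA alone 37 (32%). On top of SP3 siRNA, SP1 siRNA raised 27 of the 40 (17.9% of all genes) and lowered 2. On top of SP1 siRNA, SP3 siRNA raised 24 (21% of all genes) and lowered 0.

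MAD2L1, which encodes a spindle checkpoint protein, was at 34.4 and 33.0 FPKM in the controls, 11.7 with SP1 siRNA, 14.3 with SP3 siRNA and 24.0 with both, where the sum would be 4.605. The 3 knockdown libraries all lay below the controls, and the double one lay highest among them. Its interaction was 2.16 ± 0.12 (limma adjusted p = 1.8e-08). KIF20A, a kinesin that acts in cytokinesis, was at 14.1 and 10.8 FPKM in the controls, 2.23 with SP1 siRNA, 1.53 with SP3 siRNA and 2.55 with both. Here the double knockdown stayed near the single ones, with a ratio of 1.14 to SP1 siRNA alone (95% counting interval 0.884 to 1.48). The interaction was 2.53 ± 0.20 (limma adjusted p = 4.3e-07). The sum of KIF20A lies below 0 FPKM, so any double level would give it an interaction above 0. TOP2A, the topoisomerase that untangles sister chromatids, was at 32.2 and 26.7 FPKM in the controls, 10.3 and 5.64 in the single knockdowns of SP1 and SP3, and 12.3 with both. AURKB, the kinase of the chromosomal passenger complex, went from 22.4 and 21.1 FPKM to 7.91 and 6.93 with the single siRNAs and to 11.8 with both. Both genes showed the same order as MAD2L1: the controls highest, the double knockdown next, the single knockdowns lowest. For TOP2A, SP3 siRNA on top of SP1 siRNA made a change of 0.23 ± 0.12 that was not called. For MAD2L1 that change was 0.98 ± 0.09 (log2).

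The rest of the list, chosen here after their values were seen, shows how far members differed. BIRC5, which encodes survivin, was back at 13.9 FPKM with both siRNAs, between its controls at 15.9 and 12.4, after 6.49 and 9.44 with SP1 and SP3 siRNA. UBE2C, a ubiquitin-conjugating enzyme of the anaphase-promoting complex, was likewise at 62.9 FPKM with both and at 72.3 and 58.1 in the controls, against 31.1 and 43.7 in the single knockdowns. PLK1, the mitotic kinase, stayed low at 7.48 FPKM with both, close to 7.41 with SP1 siRNA and 5.47 with SP3 siRNA. CDC20 differed from most of the list, since SP3 siRNA alone left it at 91.8 FPKM, above its controls of 76.0 and 69.1, while SP1 siRNA gave 29.05 and both 54.0. The 3 members that did not pass were CDC25B, ECT2 and CENPE. The controls themselves differed by a median of -0.19 (control 2 minus control 1) across the list. The median interaction was 1.45 without control 1 and 1.71 without control 2. In a bulk sample, fewer dividing cells and less of these RNAs per cell cannot be told apart.

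**Figure D2:**
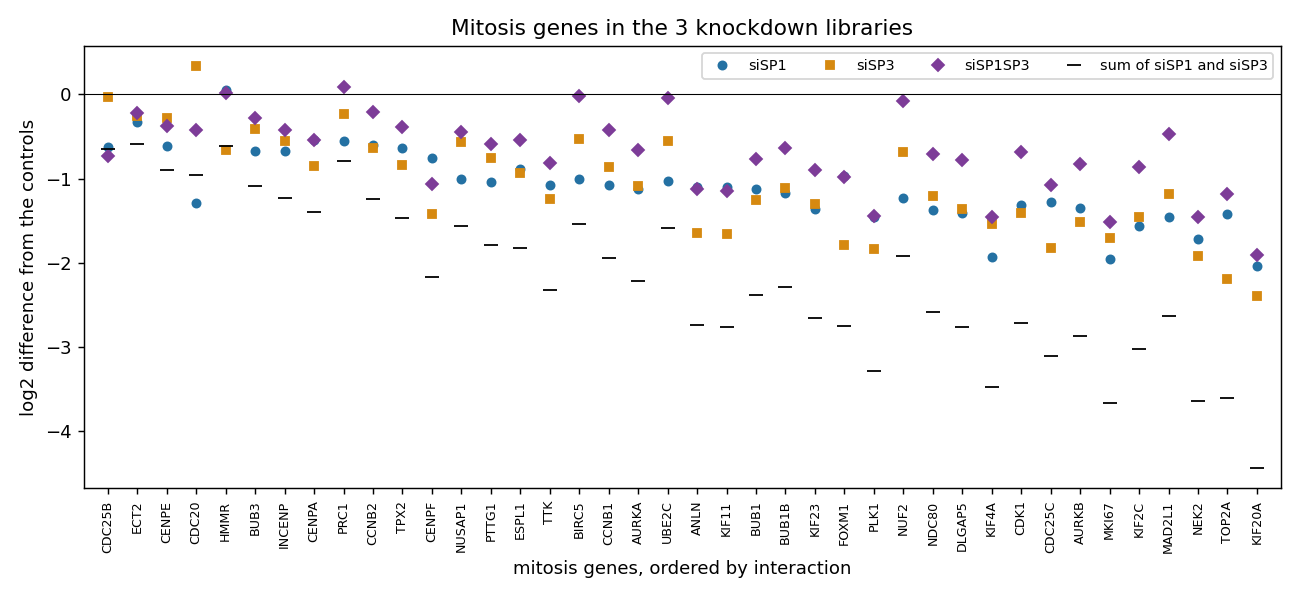
Each column is 1 of the 40 mitosis genes, with its log2 difference from the mean control (y axis) in the SP1 siRNA, SP3 siRNA and double knockdown libraries and, as a dash, the sum of the single effects. The double knockdown (purple) lies above the dash for all genes but CDC25B, and above both single knockdowns for 32.

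DNA replication genes behaved like those of mitosis with smaller effects. Of 44, 35 were called above the sum and 1 (ORC5, -0.62) below, against 18.5% and 20.9% of all genes; the median interaction was 0.73. Their median difference from control was -0.45 with SP1 siRNA, -0.60 with SP3 siRNA and -0.18 with both, and the double knockdown lay above both single ones for 31 genes (2470 of 11709 over all genes). RRM2, the small subunit of ribonucleotide reductase, which supplies deoxynucleotides, had the largest interaction of any gene named by rank. It was at 66.1 and 64.5 FPKM in the controls, 18.0 with SP1 siRNA, 17.2 with SP3 siRNA and 39.98 with both, against a sum of 4.22. The double knockdown level was 2.22 times that of SP1 siRNA alone (95% counting interval 2.06 to 2.40) and 2.32 times that of SP3 siRNA alone (2.15 to 2.51), and the interaction was 2.97 ± 0.10 (limma adjusted p = 4.0e-10). TK1, thymidine kinase, went from 132 and 130 FPKM to 54.0 and 49.6 with the single siRNAs and to 82.1 with both. FEN1, the flap endonuclease of Okazaki fragments, did not return in the same way: it was at 23.0 and 23.1 FPKM in the controls, 3.91 with SP1 siRNA, 7.42 with SP3 siRNA and 5.82 with both, between the single knockdowns.

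The promoters of RRM2 and KIF20A are shown because they stand for genes far above the sum, which for KIF20A lies below 0 FPKM. Both hold the CCAAT box, a shared element of cell division genes. The sequences are the 250 bases before the start from RefSeq, build GRCh38.p14, 5′ to 3′ in the direction of the gene; RRM2 has a second listed start that was not used. Capitals mark the GC box GGGCGG or its reverse complement CCGCCC, and CCAAT or its reverse complement ATTGG.
RRM2, chr2:10122489-10122738, + strand: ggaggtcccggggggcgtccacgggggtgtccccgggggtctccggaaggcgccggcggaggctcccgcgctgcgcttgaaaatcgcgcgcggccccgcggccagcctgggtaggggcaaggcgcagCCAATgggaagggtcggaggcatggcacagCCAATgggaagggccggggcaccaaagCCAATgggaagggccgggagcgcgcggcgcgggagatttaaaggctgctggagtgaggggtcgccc
KIF20A, chr5:138178862-138179111, + strand: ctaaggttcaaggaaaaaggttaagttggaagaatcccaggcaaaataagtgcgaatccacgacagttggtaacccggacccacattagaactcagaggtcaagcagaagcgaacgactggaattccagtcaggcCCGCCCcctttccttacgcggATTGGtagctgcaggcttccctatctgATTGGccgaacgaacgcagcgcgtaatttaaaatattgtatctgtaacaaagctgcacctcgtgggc
The RRM2 window holds 3 CCAAT boxes and 0 GC boxes in these letters, and the KIF20A window holds 2 and 1.

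Across promoters of 250 bases before to 50 bases after the start, searched on both strands, a RefSeq entry was matched for 9566 of the 11709 genes tested (81.7%). GGGCGG was found in 72.2% of these, 73.8% of genes called above the sum, 72.9% of those called below and 74.6% of those 2-fold or more above; it was in 44.6% of all promoters in the table. The share with the GC box was thus close to the background on each side of the sum. CCAAT was found in 37.0% of the genes tested, 42.8% of those above, 34.6% of those below and 55.4% of those 2-fold or more above, and in 35.7% of all promoters. In the mitosis list, with 33 of 40 promoters matched, the GC box was in 75.8%, CCAAT in 75.8% and TTTGAA, the core of the cell cycle homology region CHR, in 69.7%, against 9.31% with TTTGAA among genes tested and 15.4% of all promoters. In the replication list, with 37 of 44 matched, TTTGAA was in 2.7% and CCAAT in 59.5%. These matches are descriptions of the letters in the windows.

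Other growth genes were called above the sum in smaller shares. Of 31 cyclins and CDK inhibitors, 15 were above and 7 below, against 18.5% and 20.9% of all genes. CCNA2, cyclin A2, followed the mitosis pattern with 18.2 and 17.6 FPKM in the controls, 6.82 and 6.66 with the single siRNAs and 9.98 with both. CCNE1, cyclin E1, was on the other side: 15.5 and 17.1 FPKM in the controls, 26.8 with SP1 siRNA, 78.2 with SP3 siRNA and 55.8 with both, with an interaction of -1.17 ± 0.12 (limma adjusted p = 2.9e-06). The double knockdown of CCNE1 lay between the single ones. Of 39 DNA repair genes, 18 were above and 5 below; FANCI, of the Fanconi anaemia pathway, was at 18.8 and 17.0 FPKM in the controls, 8.56 and 9.59 with the single siRNAs and 12.9 with both.

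Cholesterol synthesis genes also lay mostly above the sum. Of 27, 22 were called above and 1 (PMVK, -0.57) below, against 18.5% and 20.9% of all genes tested. The list had a median interaction of 0.78. Its median differences from control were -0.54, -0.80 and -0.61 with SP1 siRNA, SP3 siRNA and both. DHCR7, an enzyme of a late step, was at 148 and 151 FPKM in the controls, 69.1 with SP1 siRNA, 56.6 with SP3 siRNA and 84.0 with both. INSIG1, the sterol sensor partner of SCAP, was at 324 and 334 FPKM in the controls, 153 and 216 with the single siRNAs and 260 with both. In DHCR7 and INSIG1 the double knockdown was below the controls and above both single knockdowns. Over the list the double level lay above both single ones in 10 of 27, as in 2470 of all 11709 genes. Of 19 fatty acid synthesis genes 10 were above and 5 below, so this list was split. FASN, fatty acid synthase, was at 520 and 500 FPKM in the controls, 373 with SP1 siRNA, 156 with SP3 siRNA and 282 with both, between the single levels.

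In glycolysis 16 of 23 genes were above the sum and 3 below, and in the hypoxia response 14 of 26 and 2. Over all genes tested these shares were 18.5% above and 20.9% below. PFKFB4, which sets the level of fructose 2,6-bisphosphate, was at 54.2 and 52.6 FPKM in the controls, 23.3 with SP1 siRNA, 8.70 with SP3 siRNA and 15.1 with both. BNIP3, a mitophagy receptor, was at 150 and 146 FPKM, then 114, 46.6 and 80.6 in the same order. In PFKFB4 and BNIP3 SP3 siRNA had the larger effect alone and the double knockdown lay between the single ones. Of 44 respiratory chain genes, 18 were above the sum and 5 below. Their median differences from control were -0.16 with SP1 siRNA, 0.20 with SP3 siRNA and 0.20 with both. The double level lay above both single ones in 22 and between them in 21. NDUFB2, a subunit of complex I, was at 40.8 and 44.0 FPKM in the controls, 6.97 with SP1 siRNA, 39.7 with SP3 siRNA and 19.5 with both. SP3 siRNA alone lowered 4 of the 44 (32% of all genes), and its median effect on the list was 0.20. On top of SP1 siRNA it lowered 0 (3082 of all 11709 genes) and raised 37 (21% of all genes), with a median effect of 0.38. The number that SP3 siRNA raised alone is not given here.

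Where the double knockdown lay was counted over all genes averaging 5 FPKM or more. Among the 7115, it was above both single knockdowns in 1582 (22.2%), between them in 4152 (58.4%) and below both in 1381 (19.4%). Of the 1617 called above the sum, 1136 (70.3%) had both single levels below both controls, against 25.5% of all 7115; the double level was above both single ones in 402 of these, between them in 598 and below both in 136. Of the 1727 called below the sum, 1313 (76%) had both single levels above both controls, against 30.1% of all; the double level was below both single ones in 357 of these, between them in 745 and above both in 211. The single levels enter the sum with a minus sign, so error in them moves the counts this way; the part of that was not tested. The double level was nearer to the SP3 siRNA library than to the SP1 siRNA library in 4159 genes (58.5%).

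**Figure D3:**
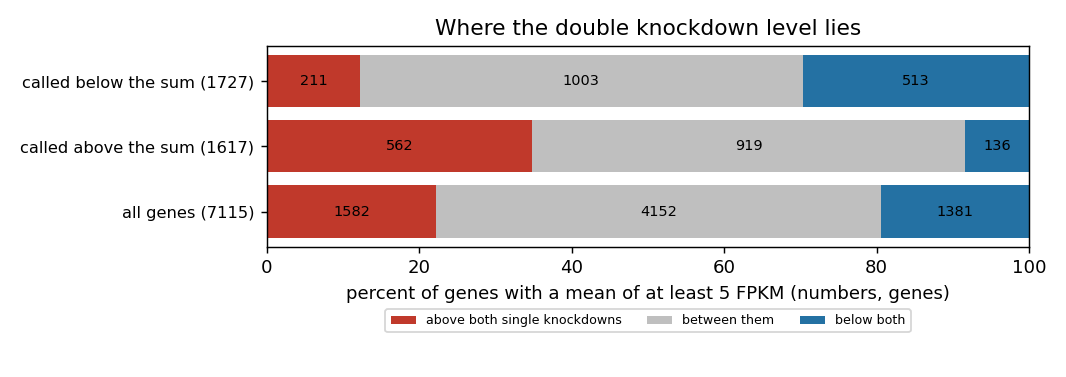
Bars give the percent of genes averaging 5 FPKM or more whose double knockdown level lies above both, between or below both single knockdowns, with the number of genes printed in each. Most genes lie between, and the share above both is 34.8% of the genes called above the sum against 22.2% of all.

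Of the 1727 genes of at least 5 FPKM called below the sum, 1313 (76%) had both single levels above both controls, against 30.1% of all. In 211 of the 1313 the double level was above both single ones. Both single levels are subtracted in the interaction, so calls below the sum favour genes with raised single levels. The genes named next are among the lowest interactions. KLF2, a zinc finger factor related to SP1 that binds similar sites, was at 6.27 and 6.68 FPKM in the controls, 33.5 with SP1 siRNA, 33.6 with SP3 siRNA and 24.1 with both, where the sum would be 159. The double level was 0.720 times that of SP1 siRNA alone (95% counting interval 0.664 to 0.782), and the interaction was -2.67 ± 0.12 (limma adjusted p = 4.3e-09). TOMM22, a receptor of the outer mitochondrial membrane, was at 8.88 and 8.67 FPKM in the controls, then 57.8, 49.8 and 48.7 with SP1 siRNA, SP3 siRNA and both. Adding SP1 siRNA to SP3 siRNA changed TOMM22 by -0.03 ± 0.08, compared with 2.59 ± 0.07 alone (log2). PRDX4, a peroxiredoxin of the endoplasmic reticulum, followed with 21.6 and 19.6 FPKM in the controls and 114, 89.6 and 104 in the knockdowns. The 3 knockdown libraries of TOMM22 and PRDX4 lay close together and far above the controls.

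The KLF2 promoter is shown because SP and KLF factors bind GC-rich sites and KLF2 had the second lowest interaction named by rank; source, build and capitals are as above.
KLF2, chr19:16324576-16324825, + strand: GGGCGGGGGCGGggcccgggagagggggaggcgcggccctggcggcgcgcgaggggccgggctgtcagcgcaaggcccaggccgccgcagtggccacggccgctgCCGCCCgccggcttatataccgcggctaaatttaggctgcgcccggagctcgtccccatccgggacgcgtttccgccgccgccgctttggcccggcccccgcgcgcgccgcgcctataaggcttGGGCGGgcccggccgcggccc
It holds 4 GC boxes, overlapping matches counted, and 0 CCAAT boxes.

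Of the 18 SP and KLF factors tested, 3 (16.7%) were above the sum and 8 (44.4%) below, against 18.5% and 20.9% of all genes, the latter 8 being KLF2, KLF3, KLF4, KLF5, KLF6, KLF7, KLF11 and KLF13. KLF7 was at 4.07 and 3.88 FPKM in the controls and at 9.65, 9.05 and 8.70 in the knockdowns of SP1, SP3 and both. KLF11 was at 2.49 and 2.39 FPKM, then 5.44, 2.96 and 2.13. SP1 siRNA alone raised KLF11 by 0.91 on the log2 scale (limma adjusted p = 8.2e-06), and SP3 siRNA added to it changed KLF11 by -1.04 (limma adjusted p = 2.1e-05). Of 41 RNA polymerase II cofactors of SP1, 3 (7.32%) were above and 12 (29.3%) below, the latter not far from the background. HDAC1, a histone deacetylase that SP1 and SP3 bind, was at 32.2 and 30.4 FPKM in the controls and at 75.7, 77.0 and 90.2 in the knockdowns of SP1, SP3 and both.

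Some genes were raised by the single siRNAs and were back at control with both. CUL7, a cullin scaffold, was at 9.74 and 9.30 FPKM in the controls, 16.5 and 18.6 with the single siRNAs and 9.16 with both; its interaction was -1.68 ± 0.13 (limma adjusted p = 3.5e-07). FOSL1, which encodes the AP-1 factor FRA1, was at 100 and 99.5 FPKM in the controls, 209 with SP1 siRNA, 138 with SP3 siRNA and 104 with both. Each siRNA thus raised FOSL1 alone and lowered it on top of the other. Counting all genes tested, 148 had both siRNAs' effects called in opposite directions without and with the other, 111 above the sum and 37 below. Others kept a partial rise: EREG, an EGF receptor ligand, was at 35.3 and 33.0 FPKM in the controls, 131 with SP1 siRNA, 50.8 with SP3 siRNA and 59.5 with both. ARL14EPL, with 8.06 and 7.84 FPKM in the controls, 97.3 with SP1 siRNA, 19.8 with SP3 siRNA and 32.3 with both, had the lowest interaction named by rank, -2.77 ± 0.12.

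**Figure D4:**
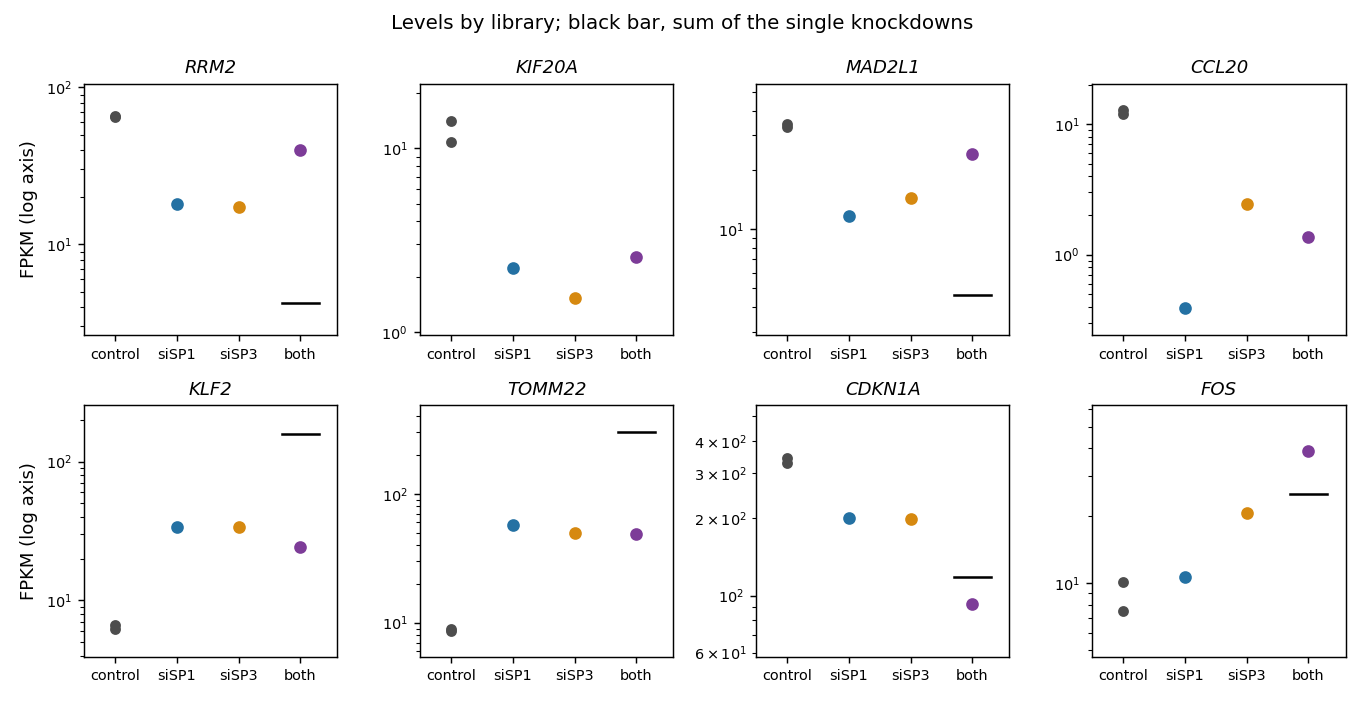
FPKM on a log axis for 8 genes in the 2 control libraries and the SP1 siRNA, SP3 siRNA and double knockdown libraries, 1 point per library, with the sum of the single effects as a black bar. The bar is missing for KIF20A and CCL20, whose sum lies below 0 FPKM; the double knockdown of RRM2 is at 39.98 FPKM against a bar at 4.22, and that of CDKN1A at 92.3 lies under its bar at 118.

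A lower limit of 0 bears on genes that the single siRNAs nearly emptied. The sum fell below 0 FPKM, a level that no library can have, for 141 genes tested, of which 110 were called above the sum; without them 2058 calls above remain. At a mean of at least 5 FPKM these were ALDH1B1, CCL20, KIF18B, KIF20A, S100A9 and SAA1. CCL20, a chemokine that NF-kB controls, was at 12.8 and 12.03 FPKM in the controls, 0.387 with SP1 siRNA, 2.45 with SP3 siRNA and 1.38 with both. S100A9 was at 11.5 and 13.95 FPKM in the controls, 1.24 and 0.109 with the single siRNAs, and listed at 0 with both, so its interaction was 2.46 although the gene was lowest with both. SAA1, an acute phase gene, was at 20.99 and 20.6 FPKM, then 3.47, 0.877 and 0.954. The inflammatory list had 14 of 30 genes above the sum and 2 below, against 18.5% and 20.9% of all genes tested. Its 3 largest interactions are those of CCL20, S100A9 and SAA1.

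Several leukocyte markers were low in the same libraries as those genes. LYZ was at 11.1 and 12.2 FPKM in the controls and at 0.258, 0.124 and 0.0449 in the knockdowns of SP1, SP3 and both. TYROBP was at 2.05 and 1.49 FPKM in the controls and listed at 0 in all 3 knockdowns, and PTPRC at 0.930 and 0.717 in the controls was at 0.0198, 0.00951 and 0. CD3D, CD3E, CD163 and MS4A1 were listed at 0 in every knockdown. Not all of the 12 markers were low: ITGAM was at 0.632 and 0.572 FPKM in the controls, 1.37 with SP1 siRNA, 0.233 with SP3 siRNA and 0.478 with both, and CD68 was at 61.9 and 58.7 FPKM in the controls, then 56.2, 94.1 and 75.3. Of the 12, 6 reached at least 1 FPKM, and LYZ, TYROBP, FCER1G and CD14 did so only in the controls, so the sign of their interactions is fixed by that and is not read. The summed list was 81.3 and 79.8 FPKM in the controls, 59.0 and 94.997 with the single siRNAs and 76.7 with both, most of it from CD68. The part of these markers in the S100A9, SAA1 and CCL20 results was not tested.

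A small group went beyond the sum. Of 1812 genes of at least 5 FPKM with both single levels below both controls, 17 were called below the sum. Of 2145 with both single levels above both controls, 5 were called above it. Among all 7115 genes of that level, 1727 were called below and 1617 above. The single levels are terms of the interaction, so choosing genes by them lowers the counts of 17 and 5. These counts are therefore given as a description only. The genes of this group are named here after their values were seen. CDKN1A, which encodes the CDK inhibitor p21, was at 343 and 329 FPKM in the controls, 200 with SP1 siRNA, 198 with SP3 siRNA and 92.3 with both. SP1 siRNA changed it by -0.74 alone and by -1.09 on top of SP3 siRNA (log2), and the interaction was -0.35 ± 0.09 (limma adjusted p = 0.0058). CDKN1B, which encodes p27, was at 23.4 and 22.4 FPKM in the controls, 22.4 and 19.7 with the single siRNAs and 14.2 with both. SP1 siRNA alone changed CDKN1B by only -0.03 (log2), which was not called. Both CDK inhibitor genes were lowest in the double knockdown.

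The CDKN1A promoter is shown because its proximal GC boxes are known SP1 sites and the gene lies below the sum; source, build and capitals are as above.
CDKN1A, chr6:36678464-36678713, + strand: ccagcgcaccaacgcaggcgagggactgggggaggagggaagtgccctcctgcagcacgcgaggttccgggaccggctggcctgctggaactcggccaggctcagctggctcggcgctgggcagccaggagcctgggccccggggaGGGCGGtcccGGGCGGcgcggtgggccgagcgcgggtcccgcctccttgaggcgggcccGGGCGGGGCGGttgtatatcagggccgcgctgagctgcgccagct
It holds 4 GC boxes, overlapping matches counted, and 0 CCAAT boxes.

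HMOX1, heme oxygenase, was at 18.1 and 19.5 FPKM in the controls, 14.5 with SP1 siRNA, 10.6 with SP3 siRNA and 5.10 with both, against a sum of 8.04. TNFRSF6B, a decoy receptor for FAS ligand, was at 769 and 766 FPKM, then 509, 629 and 306. Both had negative interactions that passed the test, -0.57 ± 0.13 (limma adjusted p = 0.0039) and -0.45 ± 0.08 (0.00054). The other 13 of the 17 were ABCC2, ARHGAP27, ARHGEF5, CAMK1, FMNL2, HSBP1L1, KITLG, MTDH, NECTIN2, PON2, RHPN2, TESC and TFAP2C, with interactions from -0.79 (CAMK1) to -0.29 (KITLG). Single levels below the controls were not always called falls: ABCC2, ARHGAP27 and TFAP2C had neither single effect called. In the upward direction FOS, an immediate early AP-1 gene, was at 7.48 and 10.1 FPKM in the controls, 10.6 with SP1 siRNA, 20.6 with SP3 siRNA and 38.9 with both, an interaction of 0.62 ± 0.18 (limma adjusted p = 0.014). FKBP2, H1F0, SAC3D1 and TUBB3 were the other 4. The 2 controls differed more for FOS than for CDKN1A.

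Some genes departed from the sum although both single levels were near control. Of 1189 genes of at least 5 FPKM whose single levels were both within 0.25 of control on the log2 scale, 78 were called above the sum and 59 below (11.5%). The single levels are terms of the interaction, so choosing them near control lowers this share, and it is given as a description only. GNG12, a G protein gamma subunit picked after its values were seen, was at 20.6 and 20.7 FPKM in the controls, 21.2 and 20.1 with the single siRNAs and 11.9 with both (interaction -0.74 ± 0.12, limma adjusted p = 0.0002). Where the single siRNAs moved a gene in opposite directions by more than 0.5, the double level lay between in 166 of 173 genes. It was nearer to the SP3 siRNA library in 116. Over all 7115 genes of at least 5 FPKM these were 58.4% between and 58.5% nearer to the SP3 siRNA library. Choosing single levels that far apart makes a level between them likely, so the 166 are a description only. RGS2, a regulator of G protein signalling picked likewise, was at 47.7 and 49.2 FPKM in the controls, 18.7 with SP1 siRNA, 238 with SP3 siRNA and 77.4 with both.

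The ribosomal protein and WNT lists showed little or no common interaction. Of 61 cytosolic ribosomal protein genes 3 were above and 9 below, with a median of -0.03, equal to that of all genes to 2 decimals. Of 30 p53 targets 1 (3.33%) was above and 9 (30%) below, against 18.5% and 20.9% of all genes tested. Their median was -0.17, lower than that of all genes. GADD45B, a stress response gene, was above, and CCNG1, BAX and CDKN1A were among those below. The WNT list had 4 above and 5 below of 29, and its best known members kept strong single effects. CCND1, cyclin D1, was at 359 and 358 FPKM in the controls, 65.8 with SP1 siRNA, 281 with SP3 siRNA and 77.5 with both. The double knockdown thus nearly matched SP1 siRNA alone, though the interaction of CCND1, 0.59, was called above the sum. MYC was at 91.9 and 85.8 FPKM, then 136, 44.1 and 47.8, close to SP3 siRNA alone, and its interaction of -0.49 was called below.

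The remaining lists are given as genes above and below the sum of those tested, to be read against 18.5% and 20.9% of all genes; several are near these shares. Interferon-stimulated genes had 11 and 3 of 28, and adhesion and matrix genes 16 and 7 of 35. Immediate early and ERK feedback genes had 10 and 7 of 32, and ATF4 and unfolded protein response genes 9 and 7 of 30. NRF2 targets had 3 and 8 of 25, mitochondrial protein import 5 and 9 of 31, autophagy and lysosome genes 6 and 7 of 34, and apoptosis regulators 6 and 8 of 36. Keratins and epithelial junctions had 7 and 5 of 34, neuroendocrine genes 3 and 2 of 10, canonical histone genes 1 and 2 of 8, colon epithelial markers 2 and 0 of 8, and fibroblast markers 0 and 1 of 2. No endothelial marker reached 1 FPKM. The colon epithelial markers summed to 3782 to 4650 FPKM, though CDX1, LGALS4 and VIL1, defining genes of that tissue, were under 0.1 FPKM. Summed histone FPKM was 227 and 287 in the controls, 214 with SP1 siRNA, 650 with SP3 siRNA and 456 with both.

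**Figure D5:**
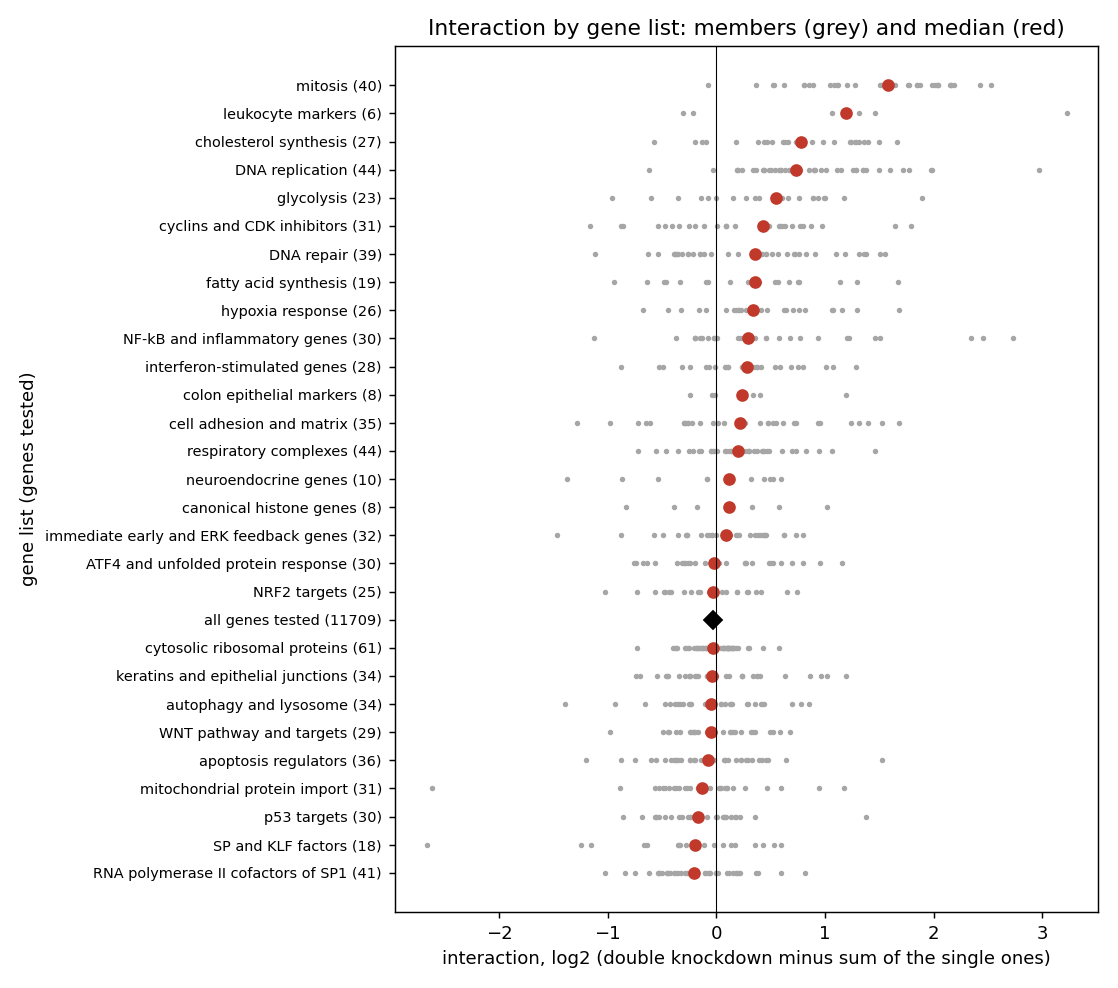
Grey points are the interactions of single genes (x axis, log2) in each list, red circles the list medians, and the black diamond the median of all 11709 genes tested; lists with fewer than 3 genes tested are left out. Mitosis is highest with a median of 1.58, and the ribosomal protein list lies at -0.03.

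The libraries were of like depth, with denominators of 14678068 to 15970519 reads recovered from the steps of the FPKM values, and 10637 to 11213 genes at 1 FPKM or more. The control libraries differed from each other by an SD of 0.133 across genes. SLX1B and CCZ1B were also among the genes named by rank, but each has a near-identical copy with which reads may be shared, so their values are uncertain.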

How the data were processed

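RNA from 5 HCT116 libraries (2 control, 1 per knockdown) was measured by RNA sequencing. The deposited FPKM values were used as the authors gave them; the submitters' processing notes name HTSeq 0.9.1, Cufflinks 2.2.1, HISAT2 2.0.5 and Trimmomatic 0.36, without their roles. The sources used here give neither genome build nor annotation. Of 20030 symbols per table, 27 that read as dates were left out. limma 3.58.1 in R 4.3.3 was fitted to log2(FPKM + 1) with 1 mean per group, trended empirical Bayes (1 residual and 13.6 prior degrees of freedom) and Benjamini-Hochberg adjustment over the genes that any library had at 1 FPKM or more (adjusted p under 0.05). Fold changes on this scale understate those of low genes. The fit was checked on simulated data.

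Whole reads were recovered from the FPKM steps for 17100 of 17100 genes above 0 (100%; tolerance 0.02 reads), and gave the depths and exact 95% counting intervals. They may be lower limits by a common factor. limma-voom on these reads was added after seeing the data and called 2142 genes above and 2551 below the sum.

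Named genes were SP1, SP3, the 15 largest interactions in each direction with a mean of at least 5 FPKM and up to 3 genes per list by smallest p; others are said to be chosen after their values were seen. The members and the lists were chosen with earlier results of these data known. Alternatives were other scalings, pseudocounts, filters, no trend, additivity of FPKM and leaving out a control.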

Additional observations from a re-analysis of the deposited data

Results flagged for a closer look

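The effect of each siRNA differed with the other siRNA present, by limma's interaction term, in 2168 genes above the sum and 2451 genes below it. For 22 named genes both siRNAs' effects were called in opposite directions without and with the other. Above the sum, the interactions were 2.97 for RRM2, 2.67 for KIF18B, 2.65 for KCTD11, 2.52 for PBK, 2.33 for CDCA5, 2.23 for TICRR, 2.16 for MAD2L1 and 2.16 for KIF2C in the largest of these. They were 2.04 for AURKB, 1.98 for TK1, 1.79 for CCNA2, 1.65 for CDKN3, 1.38 for FANCI, 1.56 for RAD54L, 1.66 for DHCR7, 1.36 for INSIG1 and 1.52 for BIRC5 in the others. Each of these genes fell with each siRNA alone and rose when that siRNA was added to the other. Below the sum, the interactions were -2.67 for KLF2, -1.90 for CCDC112, -1.68 for CUL7, -1.46 for FOSL1 and -0.75 for TAF7, and these genes rose with each siRNA alone and fell when it was added to the other. Each such comparison with a second siRNA rests on 1 library against 1.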

How the results depend on the processing

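Without the filter on low values 0 genes were called above and 0 below the sum; limma's prior degrees of freedom fell to 1.03, while 2380 and 2988 genes had an unadjusted p under 0.05. Under the other alternatives 1714 to 2231 genes were called above and 1657 to 2554 below. The 1714 come from the filter at a mean of 5 FPKM, which tested 7115 genes, while the rest tested 11709. The 2-fold counts fell to 121 above and 69 below with a pseudocount of 5. Without 1 control they were 253 to 261 above and 189 to 210 below. Additivity of FPKM in place of log2 values reversed VGF (-5.97 FPKM) and SCG2 (2.21 FPKM). Of 29 list medians, 14 moved by more than the spread between controls with median-ratio scaling, 6 without control 1 and 9 without control 2, besides those that changed sign. They changed sign for ATF4 genes (0.015 with median-ratio scaling, 0.058 and -0.054 without control 1 and control 2), NRF2 targets (0.0022 with median-ratio scaling) and WNT genes (0.0090 and -0.048 without control 2 and control 1). HIST1H1C, HIST1H2BK, KRT19, FCER1G, S100A9 and HIST2H2AC missed the threshold under 1 or more of upper-quartile scaling, median-ratio scaling, no trend and voom. All 107 named genes kept their direction without either control. Limma could not be fitted without a control, since no residual degree of freedom remains. The planned edgeR fit was not run, since the deposited unit is FPKM; voom took its place. No paired analysis was possible because each knockdown has 1 library. Depth limits genes near 1 FPKM.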
